A study of Caenorhabditis elegans with 6 samples.

Results

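The genes described here are 30 sequence-named genes of *Caenorhabditis elegans* whose RNA was at no more than 0.5 times the wild-type level in *nhr-49(nr2041)* mutants. A sequence name, such as *D1014.6*, is the clone name and number that a predicted gene carries until it is given a public name. A gene was a member if its row had such a name, its wild-type mean was at least 5 RPKM (reads per kilobase of gene, scaled to the total reads of the library), its mutant mean was at most 0.5 times that mean, and its highest mutant library was below its lowest wild-type library. Of the 46739 genes listed, 20389 had sequence names, 4415 of these reached 5 RPKM in wild-type animals, and 32 met the levels. This is 0.725% of the 4415, beside 0.764% of the 5236 genes with other names that reached 5 RPKM. The names *F58F9.7*, *B0272.3* and *C23G10.6* were set aside by the rule, and the first and last of them met the levels, which left 30. The members were thus chosen by their RPKM in the same 2 genotypes that are compared below, so their levels are given as a description and no test is made of them. In RefSeq, 8 of the 30 now have a public symbol and 22 are still under a sequence name. That count speaks to names and not to what is known of each gene.

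NHR-49 is a nuclear hormone receptor, a transcription factor of the family that is controlled by small lipophilic ligands. In *C. elegans* it is known for activating genes of fatty acid β-oxidation and desaturation, above all in the intestine, which is both gut and fat store of the worm. The nematode genome holds many predicted genes that no experiment has given a function, and a level that depends on a regulator is often the first thing measured about them.

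The study compared wild-type animals (strain PMD121) with *nhr-49(nr2041)* mutants (strain PMD122), 3 biological replicates of each. Both were derived by crossing N2 to STE68, so each genotype is 1 strain, and *nr2041* is a partial deletion that causes loss of function. All animals were late L4 larvae raised at 20°C on HT115 bacteria carrying the empty RNAi vector (EV RNAi), so both groups share that treatment. Polyadenylated RNA of whole worms was sequenced. Fewer cells of a type and less RNA per cell cannot be told apart in such samples.

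The targeted gene was still detected in the mutants. *nhr-49*, on chromosome I from 9869651 to 9874680 of WBcel235 on the plus strand, was at 39.4, 40.8 and 37.8 RPKM in wild-type replicates 1, 2 and 3 and at 26.1, 22.1 and 26.1 RPKM in the mutants, where a value over the whole gene does not resolve the deleted part. Of 10 published NHR-49 target genes, a list written with earlier results of these data known, 9 could be tested, 7 were lower, 1 (*hacd-1*) was higher, and their median log2 fold change was −2.24. The RPKM implied library totals of 24523159 to 30183162 reads. In a principal component analysis the first component (59.4% of the variance) separated the genotypes. The second (22.4%) set wild-type replicate 2 (−32.0) and mutant replicate 1 (−19.3) apart from the other libraries (4.85 to 24.1). Summed over 4 adult cuticle collagens, RPKM was 1437, 620 and 1119 in wild-type replicates 1, 2 and 3 and 809, 687 and 769 in the mutants, and limma called 0 of these 4 genes (0 also at an unadjusted p under 0.05). Summed over 10 intestine markers it was 5577 to 6283 in wild-type and 6072 to 7688 in mutant libraries. Here limma called 1 gene, which was higher, and 3 were at an unadjusted p under 0.05. The 7 body wall muscle markers summed to 4117 to 4259 RPKM in wild-type and 2286 to 3863 RPKM in mutant libraries, with 0 genes called by limma and 2 at an unadjusted p under 0.05. The 6 germline markers summed to 306 to 451 and 202 to 435 RPKM, with 0 genes by either count. Of hypodermis, sperm, pharynx, neuron and molting markers limma called 0, with at most 1 per list at an unadjusted p under 0.05. No marker of any list was at 0 in every library. The sperm markers *msp-31* and *msp-45* had wild-type means of only 0.0863 and 0.119 RPKM and were not tested, which left 5 of 7 sperm markers. The part of these sums in the members' levels was not tested.

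The 30 members kept between 0.480% and 49.1% of their wild-type mean RPKM in the mutants, with a median of 34.5%. Their counts are given over ranges of unequal width, and the rule let in no gene above 50%. Only 3 members kept under 5%, 0 kept 5% to 10%, 6 kept 10% to 20%, 0 kept 20% to 25%, 6 kept 25% to 35% and 15 kept 35% to 50%. Wild-type means ran from 5.18 to 139 RPKM with a median of 21.4, and 7 members were under 10 RPKM and 5 at 50 RPKM or more. The lowest wild-type library was over 2 times the highest mutant library for 15 members, 1.5 to 2 times for 8 and less than 1.5 times for 7. On the log2(RPKM + 1) scale the median difference, mutant minus wild-type, was −1.38 over the members and 0.10 over all 13965 genes tested, a value that became −0.04 with quantile normalization and −0.02 with library medians set equal. All 30 passed the filter on low values. A limma fit over all genes called 0.816% of them lower and 3.32% higher at an adjusted p under 0.05, and 26 of the 30 members were among those called lower. Since the rule used the same contrast, nothing is read from that count. Without the 2 libraries that stood apart, the median share kept was 29.9% and 29 of 30 members were at no more than 0.5 times the wild-type mean, the exception being *Y48E1B.8* at 57.2%.

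**Figure D1:**
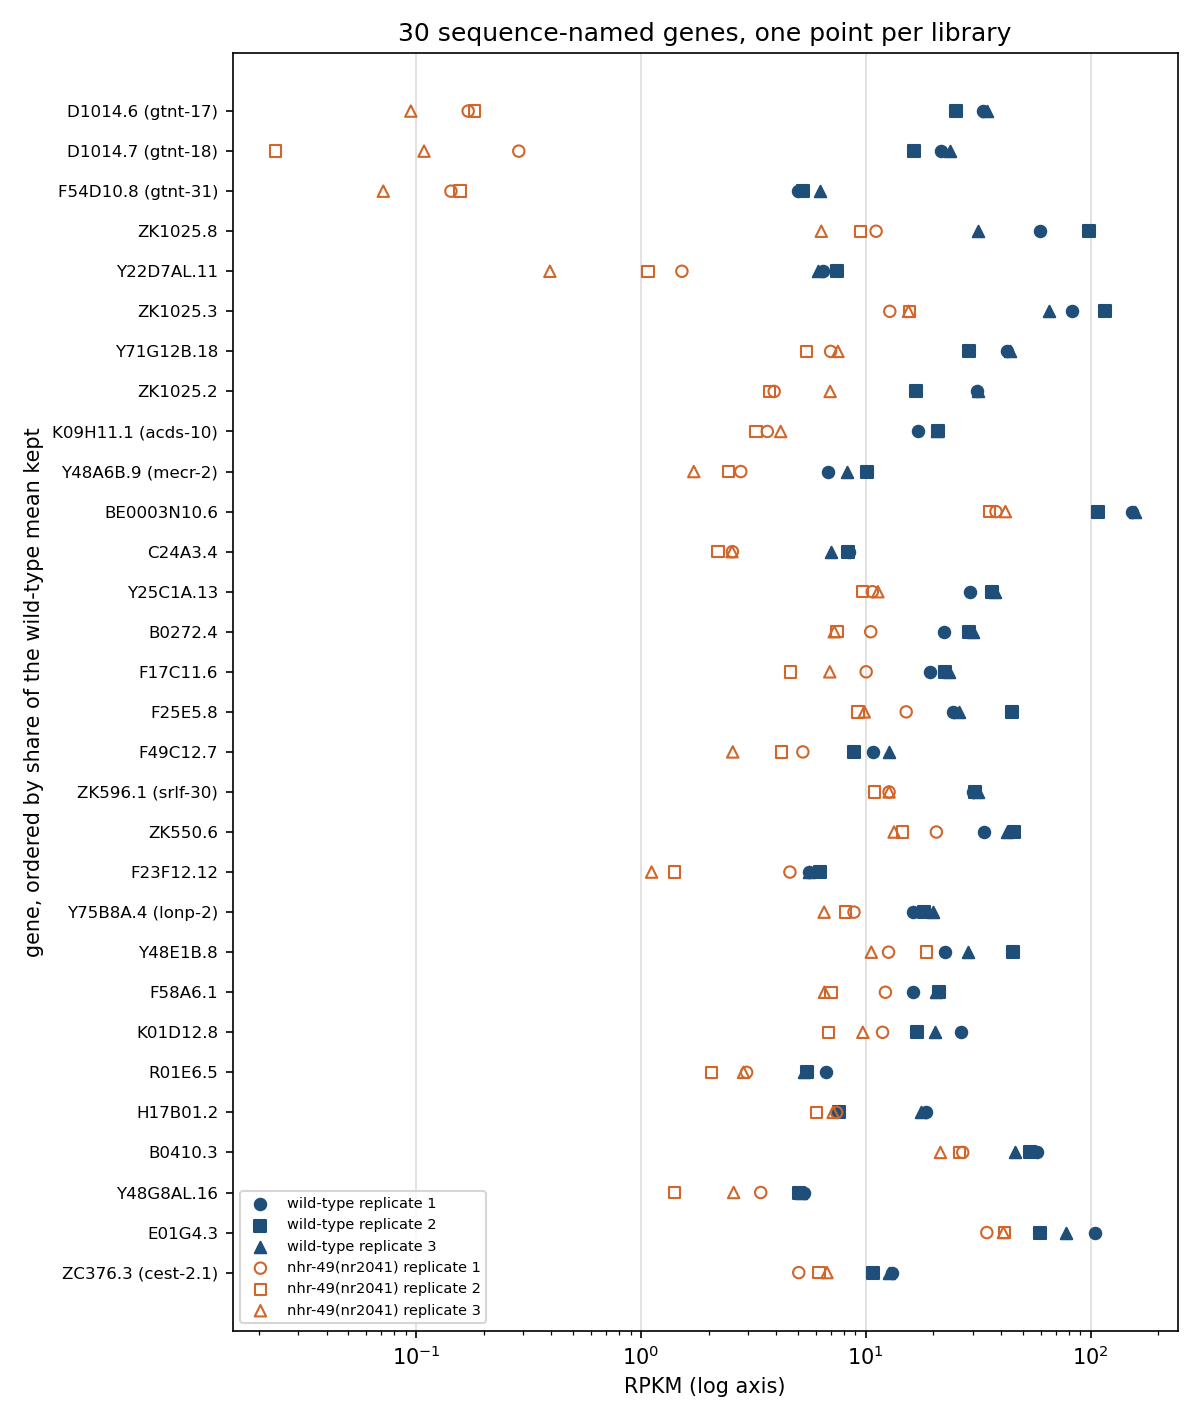
RPKM on a log axis for each of the 30 genes in each of 6 libraries, with filled symbols for wild-type and open symbols for *nhr-49(nr2041)*. Genes are ordered from the one that kept the smallest share of its wild-type mean (0.480%) to the one that kept the largest (49.1%), and the 3 genes at the top are the only ones with every mutant library under 0.3 RPKM.

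The members that came closest to losing their RNA altogether all carry a *gtnt* symbol in RefSeq. *D1014.6* (*gtnt-17*, chromosome V, 8121168 to 8123470, plus strand) was at 33.4, 25.2 and 34.6 RPKM in wild-type and 0.171, 0.182 and 0.0949 RPKM in mutant replicates 1, 2 and 3. Its means of 31.1 ± 5.12 and 0.149 ± 0.0473 RPKM (SD, n = 3) stand 208-fold apart, and they rest on 3879 wild-type and 17 mutant reads. *D1014.7* (*gtnt-18*, chromosome V, 8118264 to 8120417, plus strand) was at 21.5, 16.3 and 23.6 RPKM in wild-type and 0.286, 0.0238 and 0.109 RPKM in mutant libraries. Both genes were high in every wild-type library and near the limit of detection in every mutant library. For *D1014.7* the 17 mutant reads, beside 2789 in wild-type, were 11, 1 and 5 in replicates 1, 2 and 3, so differences among the mutants are differences of a few reads. *F54D10.8* (*gtnt-31*, chromosome II, 3825656 to 3827901, minus strand) was at 5.02, 5.24 and 6.24 RPKM in wild-type and 0.143, 0.157 and 0.0715 RPKM in mutant libraries. It started from a lower level than the pair on chromosome V and kept 2.25%, from 682 and 14 reads.

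*D1014.6* and *D1014.7* lie 751 bp apart on the same strand, and neither of the genes that flank the pair was called lower. On one side, 214 bp from *D1014.6* and on the same strand, *D1014.5* (*gtnt-16*) was at 19.3, 24.1 and 15.2 RPKM in wild-type and at 44.6, 30.9 and 31.9 RPKM in the mutants. Every mutant library was thus above every wild-type library, but the limma test did not call it (log2 fold change 0.84 ± 0.20 SE, adjusted p = 0.0785). On the other side, 133 bp from *D1014.7*, *myo-5*, a myosin heavy chain gene by name, had a log2 fold change of −0.14 ± 0.17 SE (limma adjusted p = 0.773). The nearest tested genes on either side of *F54D10.8* rose. The F-box gene *fbxa-24* went from a mean of 1.21 to 6.42 RPKM (limma adjusted p = 0.0406) and *F54D10.9* from 0.00916 to 3.01 RPKM (limma adjusted p = 0.00136). With so low a wild-type mean, *F54D10.9* entered the test only through its mutant libraries.

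Other *gtnt* genes, a group chosen after their values were seen, were higher in the mutants or not called. RefSeq lists 58 *gtnt* genes, of which 57 had reads, 36 were tested and 22 were not. In the limma fit 17 of the 58 were called higher, 16 of those tested were called in neither direction, and the 3 called lower were the 3 members. Of the 17, 15 had a wild-type mean under 1 RPKM and so entered the test through their mutant libraries, and nothing is read from the 17 as a share of the 36. Many of the rises began from almost nothing: 12 *gtnt* genes had a wild-type mean under 1 RPKM and a mutant mean of at least 5 RPKM. *gtnt-7* was at 0, 0.0622 and 0 RPKM in wild-type and 26.7, 21.8 and 25.8 RPKM in mutant libraries, and *gtnt-25* was at 0.143, 0.206 and 0.250 RPKM and then 34.0, 26.6 and 25.2 RPKM. *gtnt-9* had no reads in wild-type libraries and was at 12.7, 9.88 and 10.9 RPKM in the mutants. Their levels are the reverse of those of *D1014.6* and *D1014.7*, with no overlap between genotypes. Other genes of the group were level, such as *gtnt-42* at 30.8, 28.7 and 26.5 RPKM in wild-type and 30.97, 31.1 and 26.6 RPKM in the mutants.

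**Figure D2:**
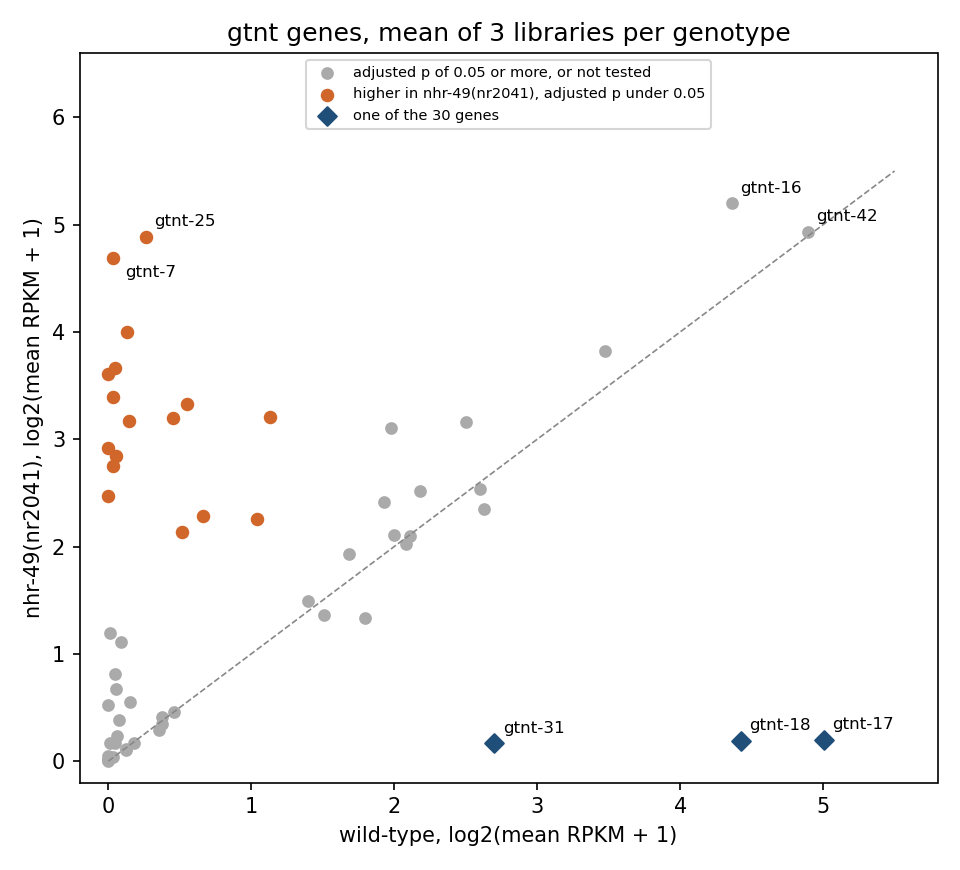
Mean of the 3 mutant libraries against mean of the 3 wild-type libraries for the *gtnt* genes, both as log2(mean RPKM + 1), with the dashed line at equality. The 17 genes called higher lie above the line, most of them at the left edge with almost no wild-type RNA, and the 3 members lie alone at the lower right.

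A stretch of chromosome I held 3 members among 8 protein-coding genes over 30.2 kb. *ZK1025.3* (11460966 to 11463074, minus strand) was at 82.3, 116 and 65.2 RPKM in wild-type and 12.8, 15.6 and 15.5 RPKM in mutant libraries. *ZK1025.8* (11469462 to 11471584, plus strand) was at 59.8, 98.7 and 31.5 RPKM in wild-type and 11.1, 9.49 and 6.34 RPKM in mutant libraries. *ZK1025.2* (11449856 to 11451972, minus strand) was at 31.2, 16.7 and 31.7 RPKM in wild-type and 3.92, 3.74 and 6.94 RPKM in mutant libraries. The 3 genes kept 16.7%, 14.2% and 18.3% of their wild-type means, without overlap between genotypes, which the rule required of every member. They did not follow one another within wild-type animals: replicate 2 was the highest for *ZK1025.3* and *ZK1025.8* and the lowest for *ZK1025.2*. Without the 2 libraries that stood apart they kept 21.1%, 17.3% and 16.98%.

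*ZK1025.2* and *ZK1025.8* lie on opposite strands, yet their annotated gene models are alike. Each has 301 codons in 7 exons, and all 7 exons have the same lengths in both (70, 56, 146, 132, 141, 158 and 203 bp), whereas *ZK1025.3* has 3 exons and 338 codons. Whether reads of one could have been counted for the other was not tested, so the split of reads between these 2 genes is uncertain.

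The genes between and beside these 3 members, read off after their values were seen, did not all fall. *bah-1*, a gene known from mutants on which *Yersinia* biofilm does not form, lies between *ZK1025.3* and *ZK1025.8* and was at 13.03, 23.1 and 12.6 RPKM in wild-type and 0.601, 0.399 and 0.456 RPKM in the mutants. It kept 2.99% of its wild-type mean, less than any of the 3 members (log2 fold change −3.49 ± 0.25 SE, limma adjusted p = 1.5e-04). The nuclear hormone receptor gene *nhr-113*, next to *ZK1025.8*, had means of 4.88 and 1.87 RPKM (limma adjusted p = 0.0445). The following *nhr-245* had means of 3.98 and 1.75 RPKM and missed the threshold (limma adjusted p = 0.0528). *ZK1025.4* (*gtnt-53*), between *ZK1025.2* and *ZK1025.3*, had means of 3.54 and 4.74 RPKM (limma adjusted p = 0.51), and *nhr-244* had almost no reads. Outside the stretch *C27C7.1* on one side (log2 fold change −0.58, limma adjusted p = 0.579) and *K08C9.1*, *K08C9.2* and *col-65* on the other were not called. *ZK1025.2* lies 1.58 Mb from the end of *nhr-49*. With 1 strain per genotype, the loss of *nhr-49* and sequence carried along with *nr2041* from its source strain cannot be told apart for genes this close.

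**Figure D3:**
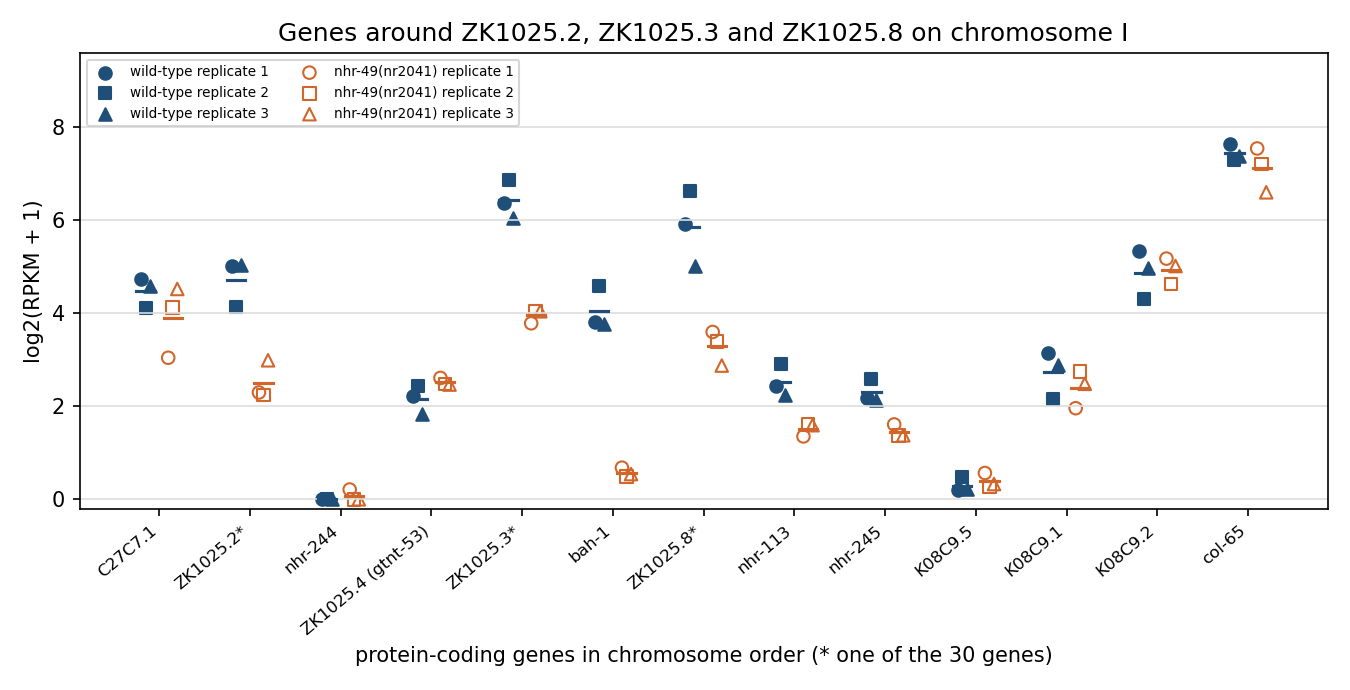
log2(RPKM + 1) in each library for 13 protein-coding genes in the order they take on chromosome I, with short lines at the mean of the 3 libraries. The 3 members (asterisks) and *bah-1* have wild-type and mutant libraries far apart, *nhr-113* and *nhr-245* less so, and the genes at either end overlap.

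The names or product descriptions of 5 members are taken up here as pointing to a known enzyme family, and 3 of these are of lipid metabolism. The other members were not searched for likeness to known enzymes, so these may not be full counts. *acds-10* (*K09H11.1*, chromosome V, 5747819 to 5752033), a homolog of the acyl-CoA dehydrogenases that open each round of β-oxidation, was at 17.1, 21.01 and 20.8 RPKM in wild-type and 3.65, 3.25 and 4.18 RPKM in mutant libraries. It kept 18.8%, with means of 19.6 ± 2.21 and 3.69 ± 0.471 RPKM (SD, n = 3), and its libraries were close together within each genotype. *mecr-2* (*Y48A6B.9*, chromosome III, 11033172 to 11036088), named as a mitochondrial enoyl reductase, was at 6.78, 10.1 and 8.26 RPKM in wild-type and 2.78, 2.45 and 1.72 RPKM in mutant libraries. Its namesake *mecr-1* was level, at means of 69.3 and 65.5 RPKM (limma adjusted p = 0.756). *ZK550.6* (chromosome IV, 17260307 to 17262485), described as a probable phytanoyl-CoA dioxygenase, the kind of enzyme that starts the breakdown of branched fatty acids, was at 33.5, 45.7 and 42.4 RPKM in wild-type and 20.6, 14.6 and 13.4 RPKM in mutant libraries. It kept 39.9%, and mutant replicate 1 was its highest mutant library.

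The other pair of named enzymes kept more of their RNA. *lonp-2* (*Y75B8A.4*, chromosome III, 12107774 to 12113468), a homolog of the Lon protease of peroxisomes, was at 16.2, 18.2 and 20.0 RPKM in wild-type and 8.87, 8.11 and 6.53 RPKM in mutant libraries. Its relative *lonp-1*, the mitochondrial Lon protease, was at means of 45.4 and 43.8 RPKM (limma adjusted p = 0.864). *cest-2.1* (*ZC376.3*, chromosome V, 14168360 to 14171481), of the carboxylesterase family, was at 13.1, 10.8 and 12.7 RPKM in wild-type and 5.04, 6.21 and 6.73 RPKM in mutant libraries. Of the 29 *cest* genes tested limma called only this member, beside 0.816% of all genes called lower and 3.32% called higher. The rule chose *cest-2.1* on this contrast, so nothing is read from that call. The neighbour *cest-2.2*, 158 bp from *cest-2.1*, had means of 19.3 and 23.7 RPKM (limma adjusted p = 0.325). The named relative was not called in any of these 3 name groups, which holds for most genes tested. That the member was lower was fixed by the rule, so no contrast within the groups is read from this.

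The member with the most RNA per length was *BE0003N10.6* (chromosome III, 1056230 to 1060061), for which no role is given in the sources used here. It was at 153, 108 and 157 RPKM in wild-type and 37.9, 35.6 and 41.8 RPKM in mutant libraries, with means of 139 ± 27.1 and 38.4 ± 3.12 RPKM (SD, n = 3). Its mutant mean was above the median wild-type mean of the members, 21.4 RPKM. *E01G4.3* was at 105, 59.6 and 78.1 RPKM in wild-type and 34.6, 41.3 and 41.0 RPKM in mutant libraries. *B0410.3* was at 57.7, 53.6 and 46.2 RPKM in wild-type and 27.0, 26.1 and 21.5 RPKM in mutant libraries. Both kept close to the upper limit of the rule, 48.2% and 47.4%, with the wild-type libraries of *E01G4.3* spread far more widely than its mutant libraries.

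Among the other members of high level, 3 were separated between genotypes by wider margins than *E01G4.3* and *B0410.3*. *Y71G12B.18* (chromosome I, 1652876 to 1655459) was at 42.3, 28.8 and 43.8 RPKM in wild-type and 6.98, 5.44 and 7.52 RPKM in mutant libraries, and replicate 2 was the lowest in both genotypes. It kept 17.3% and lies on the same chromosome as *nhr-49* but more than 5 Mb from it. *Y25C1A.13* was at 29.1, 36.3 and 37.4 RPKM in wild-type and 10.7, 9.697 and 11.3 RPKM in mutant libraries, which agree within 1.5 times in each genotype. *ZK596.1* (*srlf-30*) was at 30.1, 30.5 and 31.4 RPKM in wild-type and 12.7, 10.9 and 12.7 RPKM in mutant libraries, the tightest wild-type values among the members over 20 RPKM (SD 0.695, n = 3). Of 15 *srlf* genes tested, limma called only this member, beside 0.816% of all genes called lower and 3.32% called higher. The rule chose *srlf-30* on the same contrast, so nothing is read from that call.

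*F25E5.8* (chromosome V, 7435930 to 7436958) was at 24.4, 44.9 and 26.01 RPKM in wild-type and 15.1, 9.22 and 9.85 RPKM in mutant libraries. Its neighbour *ddo-2*, a D-aspartate oxidase gene 225 bp away and named after its values were seen, fell more, from a mean of 85.6 to 12.4 RPKM (log2 fold change −2.67, limma adjusted p = 2.92e-04). The length that the RPKM of *F25E5.8* imply, 1550 bp, exceeds the 1029 bp that the gene spans in the annotation used here. Whether reads of *ddo-2* were counted for *F25E5.8* was not tested. *Y48E1B.8* was at 22.6, 45.3 and 28.4 RPKM in wild-type and 12.6, 18.6 and 10.59 RPKM in mutant libraries, and replicate 2 was the highest in both genotypes. *Y22D7AL.11*, at the low end, was at 6.46, 7.46 and 6.11 RPKM in wild-type and 1.52, 1.08 and 0.394 RPKM in mutant libraries. It kept 14.9%, less than any member outside the *gtnt* and *ZK1025* genes, and its mutant values come from 58, 45 and 18 reads.

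The remaining 10 members kept 30.7% to 47.7%. *B0272.4* (chromosome X, 9428431 to 9430424) was at 22.2, 28.8 and 29.9 RPKM in wild-type and 10.5, 7.46 and 7.25 RPKM in mutant libraries. Its neighbours moved little by comparison: *B0272.3*, one of the names set aside, went from a mean of 100.4 to 72.8 RPKM (limma adjusted p = 0.0414) and *fln-2* from 14.5 to 23.8 RPKM (limma adjusted p = 0.0195). *C24A3.4* (30.7% kept), *F17C11.6* (33.2%) and *F49C12.7* (37.2%) had wild-type means of 7.91, 21.7 and 10.8 RPKM. *F23F12.12* (40.9%), *F58A6.1* (44.5%), *K01D12.8* (44.6%) and *R01E6.5* (45.2%) had wild-type means of 5.82, 19.3, 21.2 and 5.81 RPKM. *H17B01.2* (47.0%) and *Y48G8AL.16* (47.7%) had means of 14.6 and 5.18 RPKM. Together with *Y48E1B.8*, the members *F23F12.12*, *H17B01.2* and *Y48G8AL.16* were those that the limma fit did not call.

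For 2 of these members a single library lay close to the other genotype. For *H17B01.2* wild-type replicate 2 was at 7.61 RPKM, next to mutant values of 7.42, 6.03 and 7.16 RPKM, while wild-type replicates 1 and 3 were at 18.6 and 17.7 RPKM. For *F23F12.12* mutant replicate 1 was at 4.601 RPKM, near the wild-type values of 5.57, 6.26 and 5.62 RPKM, and the other mutant libraries were at 1.41 and 1.12 RPKM. Without the 2 libraries that stood apart, *H17B01.2* kept 36.4% and *F23F12.12* kept 22.6%.

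Wild-type replicate 2 and mutant replicate 1 were those that stood apart over all genes. Relative to the mean of the other wild-type libraries, replicate 2 was more than 1.5 times higher for 4 members, which is 13.3% beside 6.39% of all genes tested, and more than 1.5 times lower for 3, which is 10% beside 14.2%. The 4 were *ZK1025.8* (2.16 times), *F25E5.8* (1.78 times), *Y48E1B.8* (1.78 times) and *ZK1025.3* (1.57 times), and the 3 were *H17B01.2* (0.42 times), *ZK1025.2* (0.53 times) and *E01G4.3* (0.65 times). The NHR-49 target *acs-2*, an acyl-CoA synthetase gene, was also highest in that library, at 31.1, 86.7 and 32.8 RPKM in wild-type replicates 1, 2 and 3 and 0.255, 0.341 and 0.0492 RPKM in the mutants. Mutant replicate 1 was more than 1.5 times above the other mutants for 8 members, or 26.7% beside 16.9% of all genes, among them *D1014.7* (4.33 times, from 11 reads), *F23F12.12* (3.64 times) and *Y22D7AL.11* (2.07 times). It was the highest mutant library for 18 members, or 60% beside 53.5% of all genes, and for 0 members was it more than 1.5 times below. Wild-type replicate 2 thus differed from the others in both directions over the members. Mutant replicate 1 leaned upward: it was the lowest mutant library for 3 members, or 10% beside 33.4% of all genes.

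**Figure D4:**
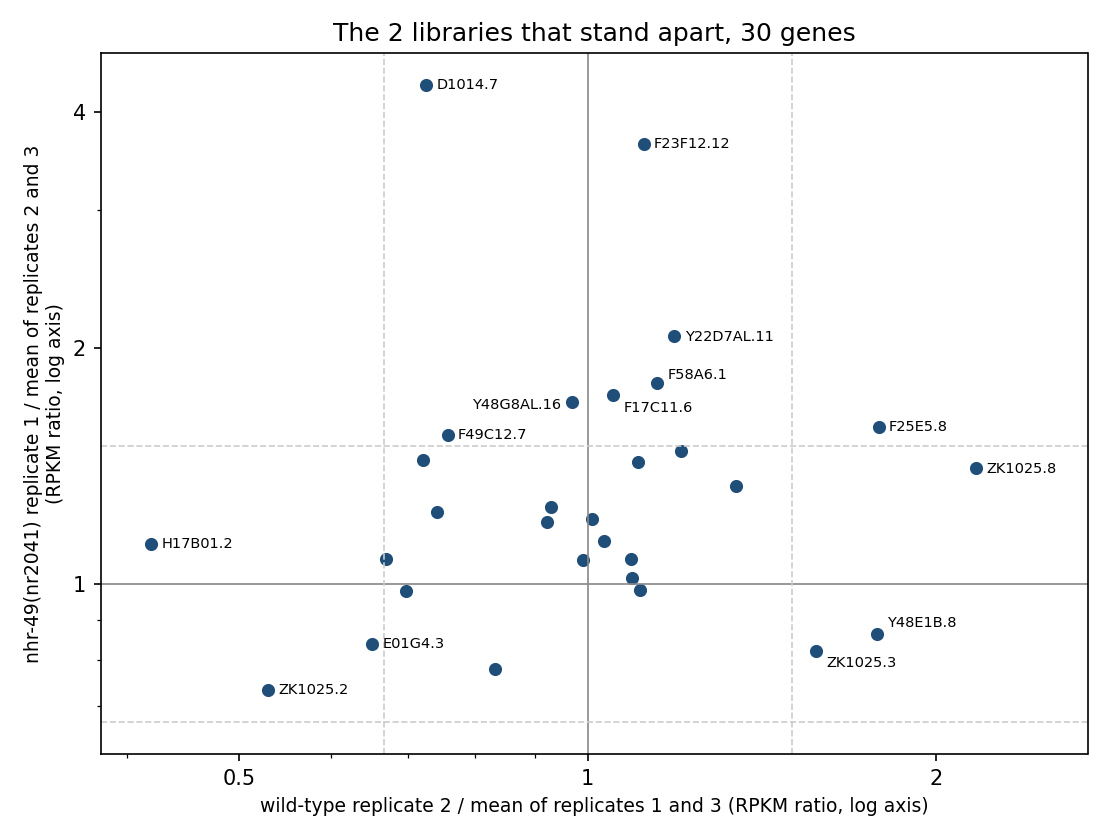
For each of the 30 genes, wild-type replicate 2 relative to the mean of wild-type replicates 1 and 3 (horizontal, log axis) and mutant replicate 1 relative to the mean of mutant replicates 2 and 3 (vertical, log axis), as RPKM ratios. Solid lines mark equality and dashed lines 1.5 times higher or lower, and *ZK1025.8* and *H17B01.2* mark the ends of the horizontal range at 2.16 and 0.42 while *D1014.7* is the highest at 4.33.

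Position and gene structure played no part in the choice. All 30 genes were found in the annotation of WBcel235 and all are protein-coding. They were spread over the 6 chromosomes, with 5 on I, 6 on II, 5 on III, 3 on IV, 7 on V and 4 on X. The share on V was 23.3% beside 19.7% of tested genes, and the share on IV was 10% beside 17.4%. Only the *ZK1025* and *D1014* genes, 5 in all, had another member within 20 kb, and the next closest pair, *E01G4.3* and *Y48E1B.8* on chromosome II, was 116.1 kb apart. Within 2 Mb of *nhr-49* lay 3 members, the *ZK1025* genes, which is 10% of the members beside 4.92% of tested genes with a position, and a window of 5 Mb held the same number beside 11.8% of genes.

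Members coded for 56 to 985 codons with a median of 310.5, beside 365 for tested protein-coding genes, and had a median of 5 exons beside 6. Of the members, 5 were under 150 codons, 16.7% beside 12.8% of genes. The longest was *acds-10* and the shortest *Y48G8AL.16*. The nearest tested genes on either side, without overlap and not themselves members, numbered 56, with a median log2 fold change of −0.02. The limma fit called 4 of them lower (7.14%, beside 0.816% of all genes), namely *bah-1*, *nhr-113*, *ddo-2* and *B0272.3*. It called 6 higher (10.7%, beside 3.32%). Among these, *F54D10.9* and *F49C12.5* had wild-type means of 0.00916 and 0.0365 RPKM. Both thus entered the test only through their mutant libraries, and nothing is read from the share called higher. The largest rise was that of *F13E9.15*, 10513 bp from *srlf-30*, from a mean of 4.29 to 83.3 RPKM (limma adjusted p = 2.04e-05).

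Another protein-coding gene overlapped 6 members, and how the reads were assigned to strands is not given in the sources used here. For *Y22D7AL.11*, *F23F12.12*, *Y48E1B.8* and *B0410.3* the overlapping gene on the other strand was below the member in every wild-type library. *F49C12.7* overlapped *F49C12.6* on its own strand, which was at 6.89, 8.90 and 5.32 RPKM in wild-type and 12.4, 8.47 and 6.54 RPKM in mutant libraries. *Y48G8AL.16* lay opposite *herc-1*, which was at 22.7, 19.9 and 22.7 RPKM in wild-type and 16.7, 20.4 and 21.5 RPKM in mutant libraries, above the member in every library, while the member rests on 52 mutant reads.

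Genes lay close to the limits of the rule on both sides. Just inside the limit on the share kept were *cest-2.1* at 49.1%, *E01G4.3* at 48.2% and *Y48G8AL.16* at 47.7%, and just outside were *F46C5.10* at 50.4%, *T22B7.3* at 50.8% and *F15A4.6* at 50.9%. The lowest wild-type means inside were 5.18 RPKM for *Y48G8AL.16*, 5.498 for *F54D10.8* and 5.81 for *R01E6.5*, and outside came *T22B7.7* at 4.90, *F56C3.9* at 4.84 and *K05B2.4* at 4.25 RPKM. Overlap of libraries alone kept out *F55B11.2* and *Y58A7A.5*. The same levels in the opposite direction were met by 189 of 4720 sequence-named genes with a mutant mean of at least 5 RPKM, or 4%.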

How the data were processed

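RNA from whole late L4 animals was sequenced as paired ends of 150 bp, 3 libraries for each of strains PMD121 (wild-type) and PMD122 (*nhr-49(nr2041)*). The authors deposited RPKM per gene and library. Their own comparison used Baggerly's test in CLC Genomics Workbench 9.5, and their notes name build WBcel235. The version of the annotation and the mapper settings were not given in the sources at hand. RPKM came out as whole reads, within 0.01 reads, for 100.0% of the 19579 genes above 0, once a gene length was solved for, which gave the read numbers and totals quoted. The solved length was not always the exon length of the gene model used here. The 2 lengths were 1550 and 816 bp for *F25E5.8*, 963 and 756 bp for *E01G4.3* and 263 and 397 bp for *Y48G8AL.16*. Counting error and the spread of 3 libraries limit the precision.

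Genotypes were compared with limma 3.58.1 (lmFit, eBayes with trend and robust, statmod 1.5.0, R 4.3.3) on log2(RPKM + 1). The 13965 genes tested had 1 RPKM or more in 3 or more libraries. P-values were adjusted by Benjamini-Hochberg, with a call at an adjusted p under 0.05. Fold changes on this scale understate those of low genes. Coordinates and gene models came from Ensembl 115 and symbols from RefSeq, with WBcel235 in both. Tables were handled in Python 3.11.15 (pandas 2.3.3, numpy 2.4.6) and plots drawn with matplotlib 3.10.9.

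The members and all lists were chosen with earlier results of these data known. Values in every library were given for the 12 members highest in wild-type, the 10 with the largest fall, those within 20 kb of another member and those with a public symbol or named family. Other members and all neighbours, *gtnt*, *srlf*, *cest*, *mecr* and *lonp* genes were named after their values were seen. Alternatives were pseudocounts of 0.1 and 0.5, no filter, at least 5 RPKM in 3 libraries, quantile normalization, a replicate block, omission of each library in turn, neighbour distances of 10 and 50 kb and a window of 5 Mb. Equal library medians and omission of both libraries that stood apart (wild-type replicate 2, mutant replicate 1) were added after seeing the data.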

Additional observations from a re-analysis of the deposited data

How the results depend on the processing

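All 30 members stayed lower in the mutants under every alternative run, but most of these runs could not have shown otherwise. The rule admitted no overlap between genotypes, so only quantile normalization or equal library medians could have made a member higher. The filters and the replicate block leave a member's fold change as it is, so under them it could not move. Of 420 refitted log2 fold changes of single members, 398 moved by less than the spread between replicates, 22 moved by more and 0 reversed. Most that moved were low genes under another pseudocount: with 0.1 in place of 1, *D1014.6* went from −4.79 to −6.97. The members' median was −1.58 with a pseudocount of 0.1, −1.47 with 0.5, −1.38 with either filter and −1.52 with quantile normalization. Leaving out 1 library at a time gave a median of −1.59 to −1.32, 18 to 27 members called lower and 382 to 635 genes called in all, against 577, with the fewest calls without wild-type replicate 3. Omission of wild-type replicate 2 along with mutant replicate 1, the libraries that stood apart, gave 1300 calls over all genes, 29 members called and a median of −1.51. With no filter 22 members were called and with at least 5 RPKM 25. The counts of close members (5) and of members near *nhr-49* (3) were the same at each distance tried.

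Deviations of same-numbered libraries from their genotype means had r over genes of −0.330, −0.159 and 0.342 for replicates 1, 2 and 3. The highest r, 0.424, joined wild-type replicate 2 and mutant replicate 1, the libraries that stood apart. These values do not settle whether the numbers pair the samples. With the replicate block, 396 genes and 20 members were called and the median was −1.38. A search of promoters for motifs and its alternative on 1 strand were not run. Levels with few reads limit the *gtnt* members most, at 14 to 17 mutant reads each. Each genotype is 1 strain, which the libraries do not replicate.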
